A study of Arabidopsis thaliana with 34 samples.

Results

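Shoots of Arabidopsis plants kept on the nitric oxide (NO) donor DETA for 24 h were compared with shoots kept on it for 2 h, in each of 3 lines. The comparison rests on 6 of the 34 log fold changes of the series, chosen by their labels: DETA 24 h minus Control 0 h and DETA 2 h minus Control 0 h in the lines C13, Mt62 and WT. C13 makes the haemoglobin of the bacterium Vitreoscilla (VHb) in the cytoplasm, Mt62 makes VHb in mitochondria, and WT is the wild type. All are of the Landsberg background, and C13 and Mt62 are 1 transgenic line each. What promoter drives the transgene was not stated in the labels. Plants were 16 days old at the start, had grown in short days on agar with mineral salts and sucrose, and received 500 µM DETA. Control 0 h plants of each line were taken untreated at the start of the experiment. Further untreated plants were taken at 2 and 24 h, and they enter below as controls of the same time. Each group had 4 array channels by the sample descriptions, except 3 in WT DETA 2 h and 3 in Mt62 Control 0 h. The submitters call them biological replicates.

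NO is a gaseous signal. It binds haem iron and modifies cysteine residues of proteins, and haemoglobins of plants and bacteria convert it to nitrate. In leaves it is known to interact with abscisic acid, jasmonate and redox signalling and with the supply of iron. Many leaf genes also follow the circadian clock, in which morning genes such as CCA1 and LHY and evening genes such as TOC1 repress each other, so that the level of a clock gene depends on the hour of harvest.

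All log2 values below come from the authors' deposited table, or are differences between its values. Values appear in it only at p of at most 0.01 in the authors' test, with no adjustment for the number of probes. A gene is said to have risen or fallen where it is listed, and a gene not listed has no value. The table holds no value per plant, so no standard deviation could be given. Because the Control 0 h group is the same in both columns of a line, it cancels in the 24 h minus 2 h difference, which is therefore a difference between DETA-treated plants. An upper bound of its standard error was derived from the probe's smallest printed value in any column, and a difference was called at an adjusted p of at most 0.05. It could be computed only for genes listed at both times. A gene's difference uses only its probes listed at both times, and so need not equal the difference of its printed means.

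The response was far wider at 2 h than at 24 h. At 24 h, 373 genes rose and 375 fell in C13 (1.52% and 1.53% of 24537 named genes), against 1983 and 1614 at 2 h (8.08% and 6.58%). Mt62 had 450 genes higher and 390 lower at 24 h (1.83% and 1.59%), against 1823 and 1813 at 2 h (7.43% and 7.39%). In WT, 334 rose and 349 fell at 24 h (1.36% and 1.42%), against 2022 and 1878 at 2 h (8.24% and 7.65%). About 346 of the 34558 probe rows would pass the threshold in any 1 comparison by the threshold alone.

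Most changed genes were therefore early, that is listed at 2 h and not at 24 h. There were 3009 early genes in C13, 3070 in Mt62 and 3469 in WT. Lasting genes, listed at both times with the same sign, numbered 586 in C13, 552 in Mt62 and 424 in WT. Late genes, listed at 24 h alone, numbered 160 in C13, 274 in Mt62 and 252 in WT. Genes that changed sign between the times numbered 2 in C13, 14 in Mt62 and 7 in WT. In all 3 lines at once, 1195 genes were early, of which 651 rose and 542 fell throughout, 69 were lasting and 5 were late.

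**Figure D1:**
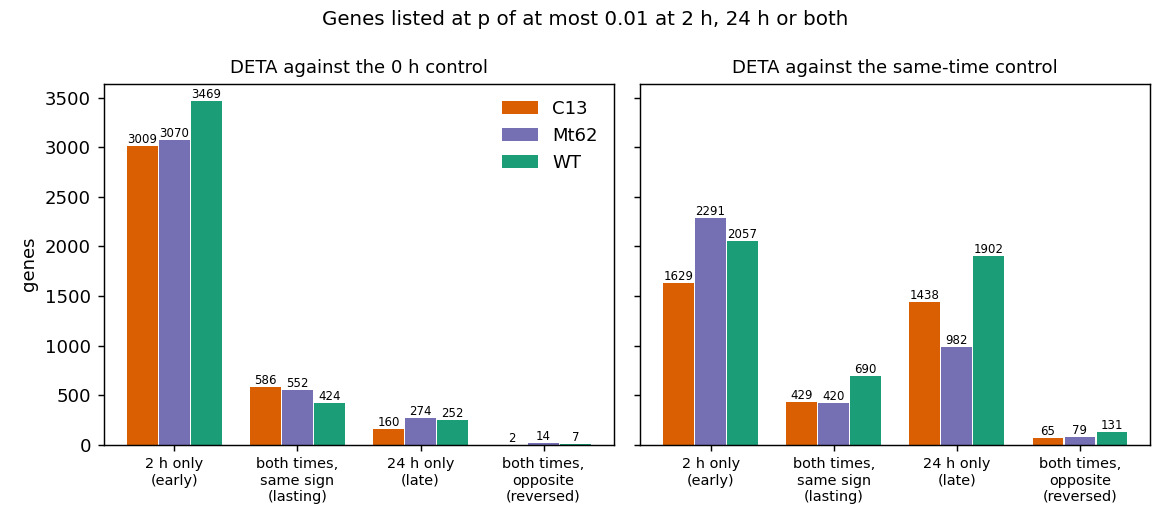
Number of genes listed by the authors at 2 h alone, at both times with the same or opposite sign, or at 24 h alone, for C13, Mt62 and WT. The left panel sets DETA-treated plants against the 0 h control, where early genes number 3009 to 3469 and late genes 160 to 274; the right panel sets them against untreated plants of the same time, where late genes number 982 to 1902.

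The early excess depended on which untreated plants served as the control. Against the control of the same time, late genes numbered 1438 in C13, 982 in Mt62 and 1902 in WT, and early genes 1629 in C13, 2291 in Mt62 and 2057 in WT. In C13, 978 genes rose and 954 fell against the 24 h control (3.99% and 3.89%), and 1180 and 943 against the 2 h control (4.81% and 3.84%). In Mt62, 667 rose and 814 fell at 24 h (2.72% and 3.32%), and 1395 and 1395 at 2 h (5.69% and 5.69%). In WT, 1303 rose and 1420 fell at 24 h (5.31% and 5.79%), and 1425 and 1453 at 2 h (5.81% and 5.92%). On this scale 599 genes were early, 260 late, 125 lasting and 6 reversed in all 3 lines. Untreated plants had themselves moved: by addition of the deposited values, the untreated 24 h minus 0 h change could be computed for 7083 genes in C13, 5974 in Mt62 and 6942 in WT, and was called in 380 (5.36%), 367 (6.14%) and 612 (8.82%) of them. The untreated 2 h minus 0 h change was called in 399 of 3878 genes in C13 (10.3%), 427 of 3594 in Mt62 (11.9%) and 454 of 3561 in WT (12.7%).

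Genes listed at both times mostly had the smaller value at 24 h. This held for 541 of the 586 lasting genes in C13 (92.3%), 480 of 552 in Mt62 (87.0%) and 388 of 424 in WT (91.5%). The median 24 h value was 59.5% of the 2 h value on the log2 scale in C13, 63.3% in Mt62 and 63.4% in WT. The difference between the times was called for 130 of 588 genes in C13 (22.1%), of which 63 were higher (10.7%) and 67 lower (11.4%) at 24 h, for 133 of 565 in Mt62 (23.5%), 65 higher (11.5%) and 68 lower (12%), and for 83 of 428 in WT (19.4%), 55 higher (12.9%) and 28 lower (6.54%). Every lasting gene with a called difference, 127 in C13, 119 in Mt62 and 77 in WT, had the smaller value at 24 h. Genes can enter these counts only if still listed at 24 h, so those that returned furthest toward the 0 h level are absent from them. When genes listed once were given the smallest difference that their absence at the other time allows, 313 of 3757 were called in C13 (8.33%), 394 of 3910 in Mt62 (10.1%) and 418 of 4152 in WT (10.1%). They split into 128 higher and 185 lower in C13 (3.41% and 4.92%), 188 and 206 in Mt62 (4.81% and 5.27%), and 202 and 216 in WT (4.87% and 5.2%). By that count 71 genes were higher and 98 lower at 24 h than at 2 h in all 3 lines. The called genes included only 163 of the 3009 early genes in C13, 234 of 3070 in Mt62 and 319 of 3469 in WT. Of the late genes, 0 of 160 were called in C13, 1 of 274 in Mt62 and 0 of 252 in WT. For the other early and late genes a difference between the times was not shown.

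**Figure D2:**
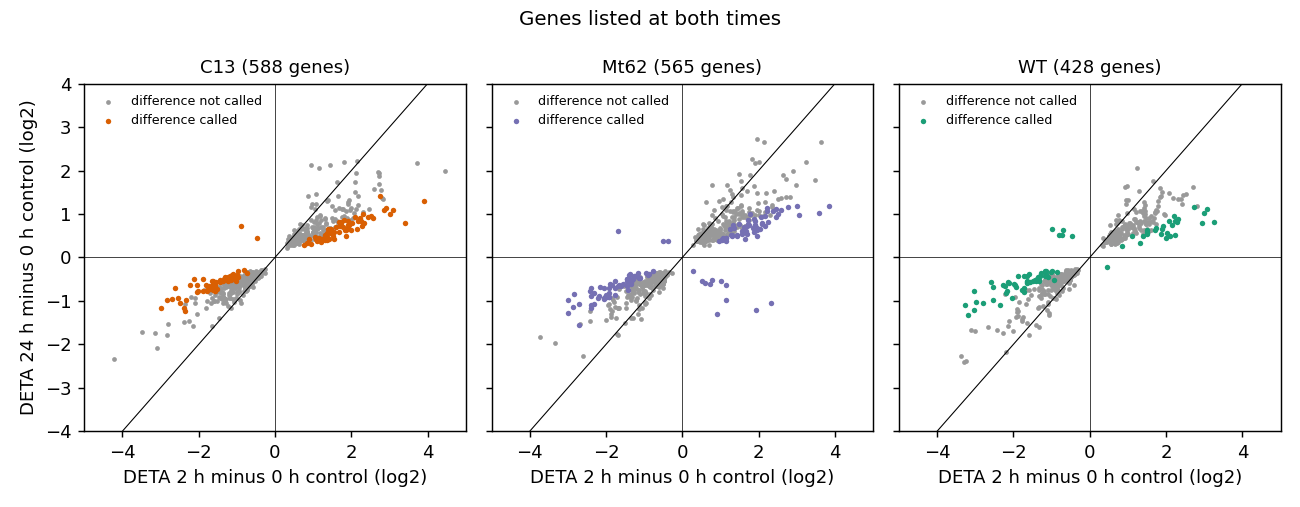
Log2 value at 24 h (vertical axis) against log2 value at 2 h (horizontal axis), each DETA minus the 0 h control, for the genes whose difference could be computed: 588 in C13, 565 in Mt62 and 428 in WT. The diagonal marks equal values, coloured points are genes whose 24 h minus 2 h difference was called, and most points lie nearer to 0 at 24 h than at 2 h.

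Among the 69 genes with a computable difference in all 3 lines, 61 had the same sign in each, 38 higher and 23 lower at 24 h, and 18 were called in all 3 (15 higher, 3 lower). The 3 that were lower at 24 h in every line were ORA59, PUP7 and AT5G52882. At an adjusted p of at most 0.01, or with the bound taken from the DETA columns alone, ORA59 lost its call in WT and PUP7 in C13 and Mt62, and PUP7 in Mt62 also with 4 channels assumed in every group. ORA59 (AT1G06160), a transcription factor of the ethylene response factor family that joins jasmonate and ethylene signals, stood at 0.95 in C13, 0.99 in Mt62 and 0.90 in WT at 24 h, against 2.52, 2.49 and 2.32 at 2 h. Its differences were -1.57 in C13, -1.50 in Mt62 and -1.43 in WT (standard error at most 0.34). Every line thus kept part of the rise, but ORA59 was not listed against the 24 h control in any line.

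PUP7 (AT4G18197), a purine permease, stood at 0.94 in C13, 1.14 in Mt62 and 0.81 in WT at 24 h, against 2.10, 2.21 and 2.29 at 2 h. Its differences were -1.16, -1.08 and -1.48 (standard error at most 0.29). Its neighbour AT4G18205, a close relative whose probes may share signal with it, moved alike, with differences of -1.30 in C13, -0.94 in Mt62 and -1.40 in WT, called in C13 and WT. Part of the 2 h level of PUP7 was shared by untreated plants, which rose by 1.02 in C13, 0.85 in Mt62 and 0.95 in WT between 0 and 2 h by addition. AT5G52882 stood at 0.72 in C13, 0.50 in Mt62 and 0.45 in WT at 24 h, against 1.71, 1.42 and 2.00 at 2 h, with differences of -0.99, -0.92 and -1.54 (standard error at most 0.19).

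The other genes with the lowest mean differences were called in 1 line or none. PRN, a pirin, was called in C13 alone (-1.76), FLS2, the receptor kinase for bacterial flagellin, in WT alone (-1.97), NUDT8, a Nudix hydrolase, in WT alone (-1.57), ALN, the allantoinase of purine breakdown, in WT alone (-1.24), and AT5G19230 in Mt62 alone (-1.50). FLS2 stood at 1.32 in C13, 1.53 in Mt62 and 1.11 in WT at 24 h, against 1.95, 2.41 and 3.08 at 2 h. Against the 24 h control it was lower in WT, at -1.07, and untreated WT plants had risen by 2.18 by then. JOX2, an oxygenase that hydroxylates jasmonate, kept most of its rise: it stood at 1.95 in C13, 1.80 in Mt62 and 1.63 in WT at 24 h, against 2.72, 2.71 and 2.71 at 2 h, and its differences were not called. JOX2 was also higher than untreated plants of the same hour at both times in every line, at 1.43 to 1.79 at 24 h and 2.98 to 3.11 at 2 h.

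**Figure D3:**
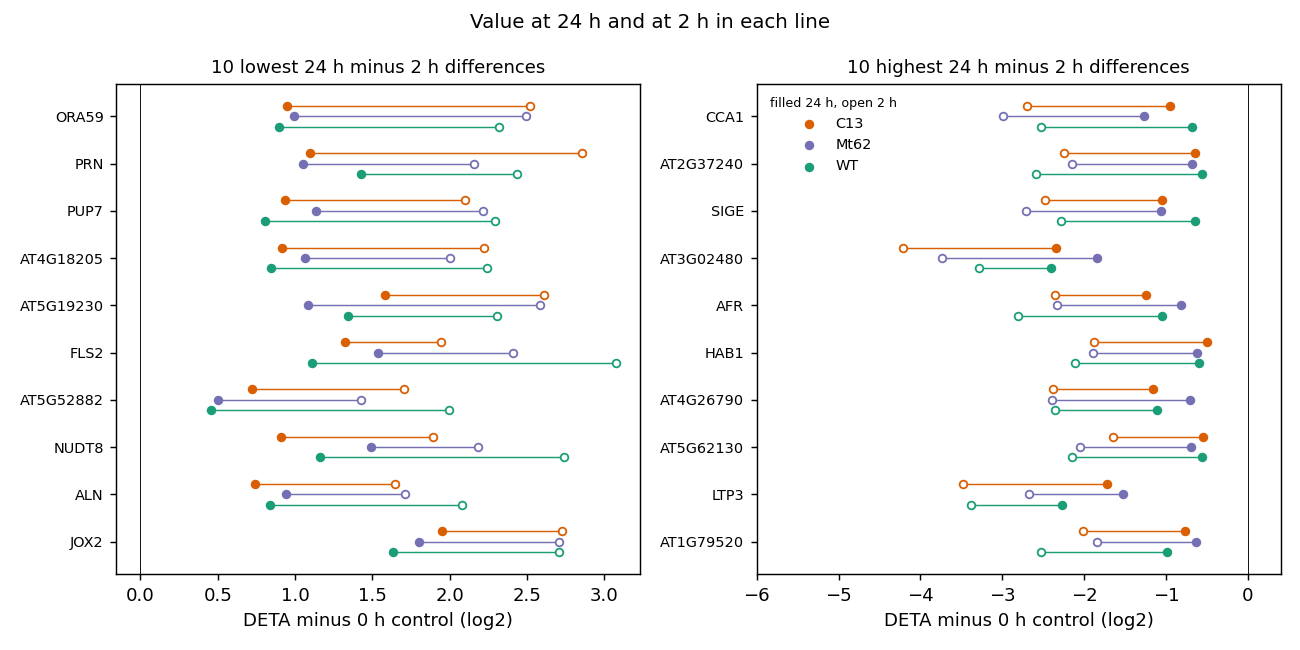
Log2 value against the 0 h control at 24 h (filled) and at 2 h (open) for the 10 genes with the lowest and the 10 with the highest mean 24 h minus 2 h difference among the 61 with the same sign in all 3 lines. All 20 genes keep their sign and lie closer to 0 at 24 h. ORA59 heads the left panel and CCA1 the right.

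Genes that fell at 2 h and stood higher at 24 h were led by CCA1 (AT2G46830), the morning clock repressor. It stood at -0.96 in C13, -1.27 in Mt62 and -0.68 in WT at 24 h, against -2.70, -2.99 and -2.52 at 2 h, and its differences of 1.75, 1.72 and 1.85 were called in all 3 lines (standard error at most 0.28). With each response set against the control of the same time, the WT difference was 0.79 and not called. Untreated plants did not return in the same way: by addition they stood at -2.61 in C13, -2.40 in Mt62 and -2.55 in WT at 24 h. CCA1 was therefore listed as higher in DETA-treated plants than in the 24 h control, by 1.65 in C13, 1.13 in Mt62 and 1.87 in WT. At 2 h untreated plants had been low too, at -3.08 in C13, -3.40 in Mt62 and -3.60 in WT, and only in WT was CCA1 listed against the 2 h control, at 1.08.

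HAB1 (AT1G72770), a phosphatase that blocks abscisic acid signalling, changed sign once time was matched. Against the 0 h control it stood at -0.50 in C13, -0.62 in Mt62 and -0.59 in WT at 24 h, against -1.88, -1.90 and -2.12 at 2 h, with called differences of 1.38, 1.28 and 1.52 (standard error at most 0.16). Against the control of the same time it was higher at 24 h, by 0.84 in C13, 0.47 in Mt62 and 0.71 in WT, and lower at 2 h, at -0.85 in C13, -0.52 in Mt62 and -0.69 in WT. HAB1 was 1 of 6 genes that reversed in every line on that scale. The others were AT2G31560, which was likewise higher at 24 h, and AT1G19310, AT1G02620, AT1G22570 and AT1G69890, which were lower at 24 h and higher at 2 h.

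AT2G37240 (differences 1.60 in C13, 1.47 in Mt62 and 2.03 in WT), SIGE (1.43, 1.64 and 1.64), a sigma factor of the chloroplast RNA polymerase, and AFR (1.11, 1.51 and 1.75), an F-box protein of far-red light signalling, were called in all 3 lines. So were AT4G26790, AT5G62130 and AT1G79520, with differences of 1.10 to 1.69. AT3G02480, of the late embryogenesis abundant family, and LTP3, a lipid transfer protein, were among the 8 lowest lasting genes. AT3G02480 stood at -2.34 in C13, -1.84 in Mt62 and -2.40 in WT at 24 h, against -4.21, -3.73 and -3.29 at 2 h. LTP3 stood at -1.72, -1.53 and -2.27 at 24 h, against -3.48, -2.67 and -3.38 at 2 h. Neither difference was called in any line, because the bounds of the standard error reached 0.71 for AT3G02480 and 0.55 for LTP3.

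The strongest lasting rises outside those genes belonged to AZI1, a lipid transfer-like protein of systemic defence, at 1.88 in C13, 2.00 in Mt62 and 1.36 in WT at 24 h, against 2.73, 2.91 and 2.19 at 2 h. The strongest lasting falls outside them belonged to SAG29, a sugar exporter of senescing leaves, the lipid transfer-like genes AT2G37870 and AT5G59330, and HAI1, another phosphatase of the abscisic acid pathway. SAG29 stood at -1.52 in C13, -1.46 in Mt62 and -1.67 in WT at 24 h, against -2.81, -2.42 and -3.11 at 2 h. HAI1 was the only one of these 4 that was also lower than the 24 h control in more than 1 line, at -0.93 in Mt62 and -1.02 in WT. AT5G59330 lies next to LTP3 and resembles it, so their probes may share signal.

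The highest early rises were those of AT5G62360, at 4.46 in C13, 4.80 in Mt62 and 4.21 in WT at 2 h, and of JOX4, a further jasmonate oxygenase, at 4.61, 4.36 and 3.73. Neither was listed against the 0 h control at 24 h. Matched to the 2 h control, AT5G62360 stood at 2.02 in C13, 1.68 in Mt62 and 1.56 in WT. On that scale JOX4 still stood at 3.82 in C13, 4.77 in Mt62 and 4.09 in WT, and XTH18, a cell wall xyloglucan enzyme, at 3.26, 4.26 and 4.48. AT5G23240 and COR28, a regulator tied to cold and the clock, turned sign instead. COR28 rose by 3.86 in C13, 3.44 in Mt62 and 1.66 in WT against the 0 h control at 2 h, while against the 2 h control it was lower, at -1.49 in Mt62 and -2.52 in WT. AT2G33830, AT1G72416 and AT3G23550 completed the 8 highest, with 2.18 to 4.06 at 2 h. AT2G33830 was not listed against the 2 h control in any line.

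The lowest early values were those of AT1G10640, at -2.65 in C13, -2.66 in Mt62 and -2.69 in WT, and of ARD4, an enzyme of methionine salvage, at -2.45, -2.50 and -2.44. AT1G10640 was also lower than the 2 h control in every line, at -1.36, -2.25 and -2.15. VTC2, which commits sugar to vitamin C synthesis, stood at -1.46 in C13, -2.26 in Mt62 and -2.17 in WT at 2 h. VTC2 was not listed against the 2 h control, but it was higher than the 24 h control in every line, by 1.08 in C13, 1.13 in Mt62 and 1.68 in WT. AT2G26690, UP6, AT3G52360, AT5G12110 and AT3G21670 completed the 8 lowest, at -1.62 to -2.60. ARD4, AT3G52360, AT5G12110 and AT3G21670 were not listed against the 2 h control in any line.

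Against the 0 h control, 5 late changes were shared by the 3 lines, all rises, whereas against controls of the same time 260 late genes were shared, 113 rising and 146 falling throughout. MPL1, a lipase induced by aphid feeding, stood at 1.18 in C13, 0.95 in Mt62 and 1.34 in WT at 24 h. THI2.1, an antimicrobial thionin inducible by jasmonate, stood at 0.76, 1.31 and 1.09. ATCSLA15, a cellulose synthase-like gene, stood at 0.62, 0.98 and 1.04, AT1G17860 at 0.67, 0.89 and 0.86, and AT3G59930 at 0.47, 0.46 and 0.42. None was listed against the 0 h control at 2 h, which by itself does not show that the 2 times differed. All 5 were also higher than the 24 h control in every line, apart from AT3G59930 in Mt62. ATCSLA15 was higher than the 2 h control too, by 0.99 in C13, 0.64 in Mt62 and 0.64 in WT, so on that scale its change was lasting.

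Jasmonates are defence and wound hormones, and many genes of JAZ repressors, synthesis and breakdown are induced by the hormone itself. Members of a list named below were in part picked after their values were seen. Of 16 genes of jasmonate signalling, 6 rose at 24 h in C13, 3 in Mt62 and 5 in WT, against 11, 10 and 10 at 2 h, and none fell at either time. Over all genes the share listed as higher was 1.52%, 1.83% and 1.36% at 24 h and 8.08%, 7.43% and 8.24% at 2 h in C13, Mt62 and WT. The share listed as lower was 1.53%, 1.59% and 1.42% at 24 h and 6.58%, 7.39% and 7.65% at 2 h. Every list count below against the 0 h control is to be read beside these shares. The lists were themselves chosen with earlier results of these data known, so this is a description and not a test. Set against the 24 h control, 2 of the 16 were higher in C13, 2 in Mt62 and 1 in WT, and 1 was lower in WT, whereas against the 2 h control 10, 9 and 9 were higher. JAZ1, a repressor that jasmonate itself induces, stood at 2.42 in C13, 2.80 in Mt62 and 2.90 in WT at 2 h and was not listed at 24 h. JAZ2, of the same family, stood at 0.41 in C13 and 0.50 in WT at 24 h, against 1.36 in C13 and 1.40 in WT at 2 h, and both differences were called (-0.95 and -0.90). VSP1 and VSP2, vegetative storage proteins whose probes may share signal, went another way: VSP1 stood at 1.94 in C13, 2.65 in Mt62 and 1.61 in WT at 24 h, with no 2 h value in WT and 2.12 in C13 and 2.14 in Mt62 at 2 h. Only Mt62 listed VSP1 against the 24 h control, at 1.35.

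Of 13 genes of jasmonate synthesis, 3 rose at 24 h in C13, 3 in Mt62 and 4 in WT, against 5, 5 and 6 at 2 h, when JAR1, which couples jasmonate to isoleucine, fell in Mt62 (-0.41). In each line 1 was higher than the 24 h control, 1 was lower in Mt62 and 4 were lower in WT. AOC1, an allene oxide cyclase, was higher than the control of the same time at both times in each line, by 1.52 in C13, 1.36 in Mt62 and 1.42 in WT at 24 h, and by 2.35, 2.48 and 2.51 at 2 h. OPCL1, which activates the jasmonate precursor, had a called difference in WT (-1.47) and uncalled ones of -0.56 in C13 and -0.60 in Mt62. LOX2, a lipoxygenase that opens the pathway, was late, at 1.41 in Mt62 and 1.41 in WT, and was not listed in C13. Of 10 genes that break jasmonate down, 4 rose at 24 h in C13, 2 in Mt62 and 3 in WT, against 6, 6 and 7 at 2 h, and 4, 2 and 2 were higher than the 24 h control. JOX3 stood at 1.34 in C13, 1.33 in Mt62 and 2.05 in WT at 24 h, against a single listed 2 h value of 1.25 in WT, and the WT difference of 0.80 was not called.

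Genes of the abscisic acid pathway fell at 2 h. Of 9 clade A phosphatases, which hold abscisic acid signalling off and are themselves induced by the hormone, 3 fell at 24 h in C13, 4 in Mt62 and 3 in WT, against 5, 6 and 5 at 2 h, and none rose. Against the 24 h control none was lower in C13, 2 were in Mt62 and 2 in WT, and 1 was higher in each line. Against the 2 h control 5 were lower in C13, 6 in Mt62 and 7 in WT, and none was higher. PP2CA stood at -0.92 in Mt62 and -0.68 in WT at 24 h, against -1.83 in Mt62 and -1.94 in WT at 2 h, and only the WT difference was called (1.26). Of 22 abscisic acid and cold genes, 2 fell at 24 h in C13, 1 in Mt62 and 6 in WT, against 7, 5 and 7 at 2 h, and at most 1 rose in any line at either time. ABF3, a bZIP factor of the pathway, stood at -2.81 in C13, -2.57 in Mt62 and -3.04 in WT at 2 h. At 24 h only WT still listed ABF3, at -0.77, a called difference of 2.26. RAB18, a dehydrin, stood at -0.93 in C13 and -1.07 in WT at 24 h, against -2.55 in C13 and -1.66 in WT at 2 h, and the C13 difference (1.62) was called.

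At 24 h more of the 22 abscisic acid and cold genes were low beside the control of the same time than beside the 0 h control. At 2 h this held in Mt62 and WT, but not in C13. Against the 24 h control, 9 of the 22 were lower in C13, 11 in Mt62 and 9 in WT, and against the 2 h control 6, 9 and 10 were. COR15B, a chloroplast protective protein, stood at -3.21 in C13, -3.03 in Mt62 and -3.13 in WT against the 24 h control, and at -2.12, -3.24 and -3.49 against the 2 h control. COR15B was not listed against the 0 h control at either time in any line. Its relative COR15A was, in WT alone, at -1.60 at 24 h and -1.32 at 2 h.

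**Figure D4:**
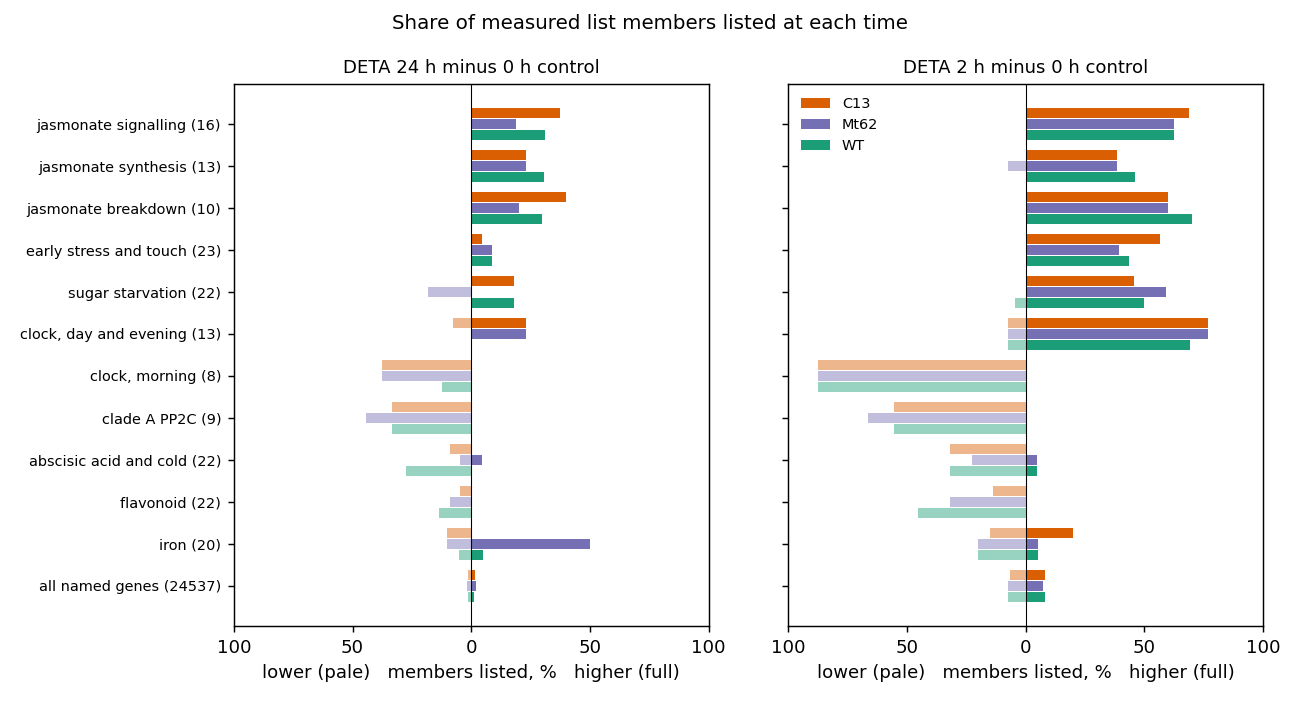
Percentage of the measured members of each gene list (their number in brackets) that the authors' table lists as higher (full colour, to the right) or lower (pale, to the left) than the 0 h control, at 24 h on the left and 2 h on the right. Jasmonate lists lie to the right at both times, morning clock genes to the left at 2 h, and iron genes stand apart in Mt62 at 24 h with 10 of 20 higher.

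The direction of the clock genes depended on the control. Of 8 morning genes, 3 were lower at 24 h in C13, 3 in Mt62 and 1 in WT, against 7 in each line at 2 h. Against the 24 h control, 6 were higher in C13, 4 in Mt62 and 7 in WT, and none was lower, and against the 2 h control 2 were higher in C13, 1 in Mt62 and 2 in WT, and 1 was lower in each line. Of 13 genes of day and evening, 3 were higher at 24 h in C13, 3 in Mt62 and none in WT, against 10, 10 and 9 at 2 h. Against the 24 h control, 10 were lower in C13, 10 in Mt62 and 9 in WT, and 1 was higher in Mt62. Against the 2 h control, 3 were lower and 2 higher in C13, 8 lower and none higher in Mt62, and 8 lower and 1 higher in WT. LHY, the partner of CCA1, stood at 2.14 in C13, 1.32 in Mt62 and 3.88 in WT against the 24 h control.

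PRR5, a repressor of morning genes, stood at 3.35 in C13, 3.59 in Mt62 and 3.17 in WT at 2 h against the 0 h control. At 24 h only Mt62 still listed PRR5, at 1.01, a called difference of -2.57, and against the 24 h control it was lower in every line, at -2.44 in C13, -2.72 in Mt62 and -2.86 in WT. ELF3, of the evening complex, stood at 0.64 in both C13 and Mt62 at 24 h, against 1.99 in C13 and 1.96 in Mt62 at 2 h, with called differences of -1.35 and -1.32. PRR3 in C13 (-2.61) and GI in Mt62 (-1.17) were also called. The labels do not state the hour of day of each harvest, and its part in these values was not tested.

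**Figure D5:**
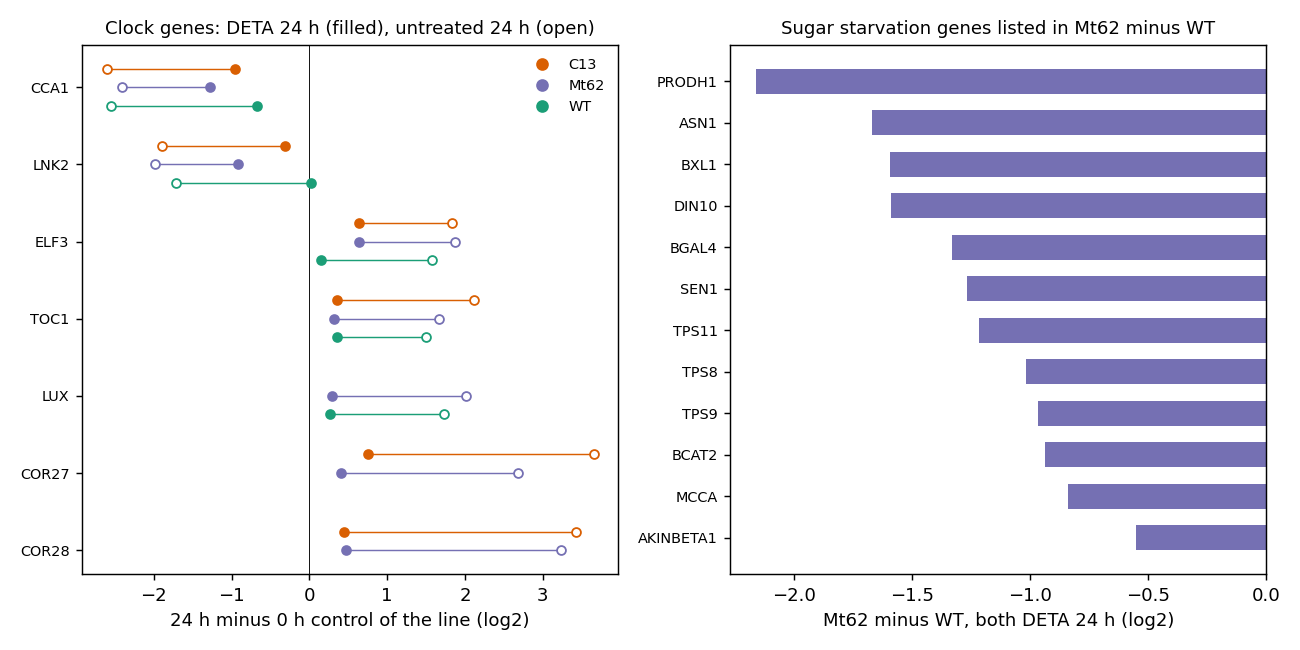
Left, log2 level of clock genes at 24 h relative to the 0 h control of the same line, in DETA-treated (filled) and untreated (open) plants, from the deposited values and their sums; CCA1 and LNK2 are less lowered and ELF3, TOC1, LUX, COR27 and COR28 less raised in DETA-treated plants. Right, the 12 sugar starvation genes that the table lists as lower in Mt62 than in WT, both after DETA for 24 h (log2), from PRODH1 at -2.16 to AKINBETA1 at -0.55.

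Of 22 genes induced when sugar runs short, 4 rose and none fell at 24 h in C13, none rose and 4 fell in Mt62, and 4 rose and none fell in WT, whereas at 2 h 10, 13 and 11 rose and 1 fell, in WT. Matched to the 24 h control, 1 was higher and 2 lower in C13, none higher and 8 lower in Mt62, and 1 higher and 3 lower in WT. PRODH1, the first enzyme of proline breakdown, stood at 1.96 in C13 and 1.60 in WT at 24 h, against 2.69 in C13 and 1.84 in WT at 2 h. In Mt62 it was listed at 2 h alone, at 1.72. BCAT2, of branched-chain amino acid breakdown, stood at 1.20 in C13 and 0.72 in WT at 24 h, against 2.18 in C13 and 1.93 in WT at 2 h, and only the WT difference (-1.21) was called. TPS10, a trehalose phosphate synthase-like protein, changed sign in Mt62, at -0.59 at 24 h against 0.59 at 2 h.

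The authors' deposited comparison of Mt62 with WT, both after DETA for 24 h, listed 451 genes as higher and 465 as lower in Mt62 (1.84% and 1.9%). It held 12 of the 22 sugar starvation genes, all lower in Mt62, among them PRODH1 (-2.16), ASN1 (-1.67), an asparagine synthetase, BXL1 (-1.60) and DIN10 (-1.59). After DETA for 2 h the same pair of lines differed in 160 genes higher and 164 lower (0.652% and 0.668%), and at Control 0 h in 73 and 117 (0.298% and 0.477%). The Mt62 and WT groups at 24 h are the same plants as in the counts above, so the direct comparison is not a second sample of them.

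Iron genes moved in Mt62 at 24 h. Of 20 genes of iron shortage and storage, 10 rose and 2 fell in Mt62 at 24 h, whereas none rose and 2 fell in C13, and 1 rose and 1 fell in WT. At 2 h, 1 rose and 4 fell in Mt62, 4 rose and 3 fell in C13, and 1 rose and 4 fell in WT. Over all genes 1.36% to 1.83% rose and 1.42% to 1.59% fell at 24 h, against 7.43% to 8.24% and 6.58% to 7.65% at 2 h. Against the 24 h control, 9 of the 20 were higher and 1 lower in Mt62, 3 were higher in WT, and none was listed in C13. IMA3, a small peptide that signals iron shortage, stood at 2.81 in Mt62 at 24 h, IMA1 at 2.73 and IMA2 at 2.23, and none of them was listed in C13 or WT against the 0 h control. IMA1 and IMA2 are close relatives whose probes may share signal. BHLH100 stood at 2.51, BHLH39 at 1.90 and BHLH38 at 1.85 in Mt62, transcription factors that turn on iron uptake genes, and of these only BHLH39 was listed in WT, at 1.08.

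FER1, a ferritin that stores iron, was lower in Mt62 at both times, at -1.78 at 24 h and -1.69 at 2 h. Directly compared, IMA3 (1.68), IMA1 (1.35) and PYE (0.87), a regulator of iron balance, were higher and FER1 (-1.20) and FER3 (-0.64) lower in Mt62 than in WT at 24 h of DETA. That comparison listed 3 of the 20 iron genes as higher and 2 as lower in Mt62, and the rest not at all. Mt62 Control 0 h, which has 3 channels, is the baseline of the Mt62 values. The rise of the IMA genes in Mt62 was also seen against the Mt62 24 h control, at 3.10 for IMA3, 2.22 for IMA1 and 2.13 for IMA2.

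Of 14 auxin response genes, none was listed at 24 h in any line, against 6 lower in C13, 2 higher and 2 lower in Mt62, and 2 higher and 1 lower in WT at 2 h. In the direct comparison of C13 with WT after DETA for 2 h, 3 of the 14 were lower in C13 and none higher (1.3% and 1.3% of all genes). Against the 0 h control, 14 genes had opposite signs in 2 lines at 2 h, and 12 of them set C13 against WT. HB4, HB-2, YUC8, YUC9 and IAA29, singled out after their values were seen, were among those that fell in C13 and rose in WT. HB4, a homeodomain factor of shade avoidance, stood at 0.73 in C13 and 0.89 in WT at 24 h, against -0.88 in C13 and 1.16 in WT at 2 h. YUC9, an enzyme of auxin synthesis, stood at 0.44 at 24 h and -0.46 at 2 h in C13, a called difference of 0.91, and at 0.77 in WT at 2 h.

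C13 and WT also differed before treatment. The direct comparison of C13 with WT at Control 0 h listed 256 genes as higher and 426 as lower in C13 (1.04% and 1.74%), with HB4 at 0.93, HB-2 at 0.95, YUC8 at 0.98, IAA29 at 1.07 and CIPK20, a protein kinase, at 1.40. After DETA for 2 h it listed 320 genes higher and 319 lower (1.3% and 1.3%), with HB4 at -1.11, HB-2 at -1.05, YUC8 at -0.98, IAA29 at -1.06 and YUC9 at -0.95. Against the control of the same time HB4 rose at 2 h in all 3 lines, by 0.89 in C13, 1.72 in Mt62 and 1.65 in WT, and IAA29 by 1.21, 1.56 and 1.06. None of HB4, HB-2, YUC8, YUC9 and IAA29 was lower than the 2 h control in any line.

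A direct test of whether the 24 h minus 2 h change differed between a haemoglobin line and WT called no gene. For C13 less WT it could be made for 132 genes and none passed (0%), with 16 genes at an unadjusted p of at most 0.05, and for Mt62 less WT none of 137 passed (0%), with 15. Both used a two-sided t distribution with Benjamini-Hochberg adjustment on the bounded standard errors. The sugar starvation and iron genes of Mt62 could not enter it where any of their 4 values was missing.

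Against the 0 h control, 14 genes changed sign between the times in Mt62, against 2 in C13 and 7 in WT. Against controls of the same time, 65 did so in C13, 79 in Mt62 and 131 in WT. On the 0 h scale, SIP2, which breaks down raffinose-type sugars, stood at -1.05 in Mt62 at 24 h against 2.32 at 2 h, a called difference of -3.37, while in C13 it stood at 1.12 at 24 h and 2.47 at 2 h. BT2, a scaffold protein that responds to nitrate, sugar and the clock, stood at -1.20 in Mt62 at 24 h against 1.94 at 2 h, a called difference of -3.15. BGAL1, a galactosidase (-0.97 against 1.13), CAT6, an amino acid transporter (-0.64 against 1.15), ATL8 (-0.54 against 1.02) and AT3G48390 (-1.30 against 0.90) did likewise in Mt62. WT had 7 such genes, among them HPL1, the hydroperoxide lyase of leaf volatiles, at 0.66 at 24 h against -0.98 at 2 h. C13 had YUC9 and HB4, and no gene changed sign in more than 1 line against the 0 h control. These genes were singled out after their values were seen.

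Of 20 haemoglobin, nitrate and NO genes, none was listed at 24 h in C13, 1 rose and 5 fell in Mt62, and none rose and 2 fell in WT, against 5 higher and 2 lower in C13, 4 and 4 in Mt62, and 3 and 4 in WT at 2 h. Fewer were listed beside controls of the same time. At 24 h, 1 was lower in C13, 2 in Mt62 and 1 in WT, and none was higher. At 2 h, 2 were higher in C13, 2 in Mt62 and 1 in WT, while 1 was lower in Mt62, 1 in WT and none in C13. BT2 in Mt62, described above, was the one with a called difference between the times against the 0 h control. NIR1, the nitrite reductase, stood at -1.36 in Mt62 and -1.22 in WT at 24 h, against -1.87 in Mt62 and -1.88 in WT at 2 h, and the differences of 0.51 and 0.66 were not called. The nitrate reductase NIA1 stood at -1.06 in Mt62 and -0.96 in WT at 24 h, against -0.96 in Mt62 and -0.89 in WT at 2 h. NIA2 stood at -1.18 at 24 h and -1.05 at 2 h in Mt62, and at -1.02 in WT at 2 h. The plant's own haemoglobin HB2 stood at 1.34 in C13, 1.54 in Mt62 and 1.68 in WT at 2 h, and at 24 h only Mt62 listed it, at 1.18. HB1, HB3, AOX1A, ADH1 and PDC1 were listed in none of the 6 comparisons, and no probe was named GSNOR1.

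Of 10 methionine sulfoxide reductases, which repair oxidised methionine, 2 rose and 2 fell at 2 h in each line. At 24 h, 1 rose in C13, none in Mt62 and 2 in WT, and none fell. Against the 2 h control, 3 were higher in C13, 2 in Mt62 and 2 in WT, and none was lower. Against the 24 h control, 3 were higher and 1 lower in C13, 1 higher in Mt62, and 2 higher and 1 lower in WT. MSRB9 rose most at 2 h against the 0 h control. It stood at 1.00 in C13 and 1.03 in WT at 24 h, against 3.01 in C13 and 2.99 in WT at 2 h, with called differences of -2.01 and -1.96, and in Mt62 it was listed at 2 h alone, at 2.95. MSRB7, its relative, stood at 2.47 in C13, 1.63 in Mt62 and 1.97 in WT at 2 h and was not listed at 24 h. Of 34 glutathione S-transferases, 2 rose and 1 fell at 24 h in C13, 5 rose and 1 fell in Mt62, and 4 rose and none fell in WT, against 11 and 3, 9 and 4, and 6 and 5 at 2 h. Over all genes 1.36% to 1.83% rose and 1.42% to 1.59% fell at 24 h, against 7.43% to 8.24% and 6.58% to 7.65% at 2 h. GSTF10 stood at 1.07 in Mt62 and 0.74 in WT at 24 h, against 2.23 in Mt62 and 2.16 in WT at 2 h, and both differences were called (-1.15 and -1.42). Set against the 24 h control, 1 of the 34 transferases was higher and 2 lower in C13, 4 higher in Mt62 and 7 higher in WT. Set against the 2 h control, 6 were higher and 1 lower in C13, 8 and 3 in Mt62, and 7 and 1 in WT.

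Of 23 early stress and touch genes, 1 rose at 24 h in C13, 2 in Mt62 and 2 in WT, against 13, 9 and 10 at 2 h. Against the 2 h control, 3 were higher in C13, 9 in Mt62 and 9 in WT. Against the 24 h control, 1 was higher in C13, 1 in Mt62 and 3 in WT, and 1 was lower in each line. TCH3, a calmodulin-like calcium sensor, stood at 2.05 in C13, 1.96 in Mt62 and 1.74 in WT at 2 h, and ZAT10, a zinc finger repressor, at 1.89, 1.87 and 1.34. Neither was listed against the 0 h control at 24 h. Of 17 ethylene genes, none was listed at 24 h, when 1.36% to 1.83% of all genes rose, against 5 higher in C13, 5 higher and 1 lower in Mt62, and 6 higher and 1 lower in WT at 2 h, when 7.43% to 8.24% of all genes rose. Beside the 2 h control, 1 ethylene gene was higher in C13, 1 in Mt62 and 2 in WT, and none was lower. Beside the 24 h control, 1 was lower in C13 and 1 higher in WT. ACO4, the enzyme that completes ethylene synthesis, stood at 1.49 in C13, 1.42 in Mt62 and 1.72 in WT at 2 h. Against the 2 h control ACO4 was listed in WT alone, at 0.86.

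Of 22 flavonoid genes, 1 fell at 24 h in C13, 2 in Mt62 and 3 in WT, against 3, 7 and 10 at 2 h, and none rose. UGT78D2, a flavonoid glucosyltransferase, stood at -0.51 in C13 and -0.50 in WT at 24 h, against -1.14 in C13 and -1.39 in WT at 2 h, and both differences were called (0.63 and 0.89). Against the 24 h control, 6 of the 22 were higher in C13, 4 in Mt62 and 10 in WT. Against the 2 h control, 2 were higher in C13, 2 in Mt62 and 1 in WT, and 1 was lower, in WT. Of 8 cell cycle genes, none was listed at 24 h against the 0 h control, against 4 lower in C13, 5 in Mt62 and 3 in WT at 2 h. Beside the 24 h control, 2 of the 8 were higher and 1 lower in C13, 3 higher in Mt62 and 4 higher in WT. Beside the 2 h control, none was listed in C13, while 3 were lower in Mt62 and 2 in WT. Over all genes 1.42% to 1.59% fell against the 0 h control at 24 h and 6.58% to 7.65% at 2 h.

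Photosynthesis genes were seldom listed: of 39, 1 rose and none fell at 24 h in C13, 1 rose and 1 fell in Mt62, and none was listed in WT, against 3, 1 and 1 lower at 2 h. Of 27 core hypoxia genes, 1 rose at 24 h, in WT, against 3 in C13, 2 in Mt62 and 2 in WT at 2 h, while 1.36% to 1.83% of all genes rose at 24 h and 7.43% to 8.24% at 2 h. Of 9 root markers, checked because a shoot harvest should lack them, none was listed at 24 h, and at 2 h AKT1 alone was higher, at 0.76 in C13, 0.56 in Mt62 and 0.56 in WT, and PYK10 alone lower, at -0.95 in C13. The table gives no levels, so whether root tissue was absent could not be checked beyond this.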

How the data were processed

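Expression was measured by the authors on 7 slides of 3-dye Agilent arrays, with quantile normalization, an in-house form of ComBat and an empirical Bayes test per probe, per the labels. The deposited values are log fold changes between groups, taken here as log2 because the base is not stated; values with p over 0.01 were left blank by the authors. All 34 columns have 34558 probe rows, and no column holds a single plant or channel, so the number of arrays limits the precision. Of the rows, 26366 were named through RefSeq accession (24536) or symbol (1794, and 36 as given), for 24537 genes, and 8192 stayed unnamed. No genome build is named, so no coordinates are printed.

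A gene's value is the mean of its listed rows, all of the same sign. The spread was bounded by the smallest listed value of the row, over 2.58 times the root of the summed reciprocal channel numbers (median bound of the standard error 0.2 for rows listed at both times). The 24 h minus 2 h difference over that bound was tested by a two-sided t distribution with 60 degrees of freedom, Benjamini-Hochberg adjusted over all 34558 rows, at 0.05. Where other columns give an unlisted value by addition, it was used only where said. The deposited columns add up to within 1.0e-09. The method was tried on simulated data in which each known difference made the 24 h value larger in size than the 2 h value. Known differences toward a smaller value at 24 h, as in most lasting genes here, were not simulated.

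The named genes are the 10 highest and 10 lowest mean differences with 1 sign in all 3 lines, the 8 highest and 8 lowest lasting, early and late genes in all 3 lines, up to 4 members of each list and a set of NO and hypoxia genes; other genes were picked after their values were seen. The members and the 29 lists were chosen with earlier results of these data known. The 24 h and 2 h columns of a line share the 0 h control, so no correlation between them is given. A planned count of promoter motifs was not run, as no sequence was used here. Alternatives are given in the closing section. Computation used Python 3.11.15, pandas 2.3.3, numpy 2.4.6 and scipy 1.17.1.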

Additional observations from a re-analysis of the deposited data

Results flagged for a closer look

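The change between 2 and 24 h of DETA differed between a haemoglobin line and WT, by the test of that difference, for 12 genes once values given by addition were used: 7 of 399 genes for C13 (1.75%) and 5 of 369 for Mt62 (1.36%). With listed values alone none of them passed, but most could not be tested that way. AAE7, AT1G14010, AT1G19310, AT1G80850, AT2G21380, AT2G29340 and AT5G47050 had no listed WT value at 24 h against the 0 h control. AT5G64190 had none in Mt62 at either time. Each of these genes was listed in the direct comparison of its line with WT after DETA for 24 h. Examples are AT1G19310 (1.01 in C13) and AT5G64190 (-1.07 in Mt62). That comparison can supply a missing value, and it lists a gene only where the lines differed in the authors' test. Genes could thus become testable because the lines differed, so these shares are not ordinary rates of calls.

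In C13 less WT the positive differences were HB4 (1.88), HB-2 (1.70), AT1G19310 (1.52), YUC9 (1.45) and AT1G14010 (0.84). HB4, HB-2 and YUC9, genes of shade avoidance and auxin synthesis, were higher at 24 h than at 2 h in C13, by 1.61, 1.29 and 0.91, whereas in WT the same differences were -0.27, -0.40 and -0.55. AT1G19310 had -0.23 in C13 and -1.75 in WT, and AT1G14010 had -0.11 in C13 and -0.95 in WT. The negative differences were AAE7 (-1.23), an acyl-activating enzyme, with 0.38 in C13 and 1.62 in WT, and AT1G80850 (-1.04), with 0.13 in C13 and 1.17 in WT.

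In Mt62 less WT the negative differences were AT5G64190 (-1.61), MES16 (-1.51), an esterase, AT2G29340 (-1.35) and AT5G47050 (-1.0), and the positive one was AT2G21380 (0.74). The Mt62 differences between the times lay between -0.28 and 0.15 for these 5, whereas those of WT were 1.32 for AT5G64190, 1.46 for MES16, 1.26 for AT2G29340, 1.15 for AT5G47050 and -0.87 for AT2G21380. WT DETA 2 h, which enters all of these differences, rests on 3 channels. With 4 channels assumed in every group and listed values alone, C13 less WT called 1 gene, HB4, and Mt62 less WT none.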

How the results depend on the processing

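Of 87 alternative counts, 52 lay within 1.5 times of the reported one and 35 did not; counts below run in the order C13, Mt62, WT. Called 24 h minus 2 h differences numbered 60, 80 and 55 when a size of at least 1 was asked as well, 242, 255 and 347 with values by addition, and 313, 394 and 418 with lower bounds for genes listed once. At an adjusted p of at most 0.01 they numbered 84 in C13. Against the control of the same time, early genes numbered 1629 in C13 and 2057 in WT, late genes 1438, 982 and 1902, lasting genes 690 in WT, and reversed genes 65, 79 and 131. With listed values of at least 1, early genes numbered 902, 1023 and 1098, late genes 13, 60 and 46, lasting genes 79, 106 and 75, and reversed genes 0, 2 and 0. The C13 less WT test called 1 gene, HB4, with the critical value of t with 60 degrees of freedom or with 4 channels in every group, and 7 genes with values by addition, while Mt62 less WT called 5 with values by addition. The alternatives in critical value, channels, bound and adjusted p change only the standard error or the limit, so no difference could reverse under them. Only against controls of the same time could a sign reverse, and none of the differences computable there did. Of the 60 differences of the 20 genes with the highest and lowest means, 40 were called. Of these 40, all kept the call with that critical value (ALN in C13 gained one), 39 with 4 channels (PUP7 in Mt62 lost it), 35 at an adjusted p of at most 0.01 and 35 with the bound from DETA columns alone. ORA59 in WT, PUP7 in C13 and in Mt62 and AT5G19230 in Mt62 lost it under both of the last 2, AFR in C13 at 0.01 and ALN in WT with the DETA bound. Against controls of the same time, a choice made after seeing the data, 10 of the 40 could be tested, 8 kept the call, and CCA1 in WT and PRN in C13 lost it. The cause of these moves was not tested, except that the size and p limits ask more of each gene by construction. No paired analysis was possible because the table holds no value per channel, and for the same reason no replicate could be left out. The standard error is an upper bound, so genes with only large listed values, such as AT3G02480, JOX2 and LTP3, could not reach a call, and a missing value is not a value of 0.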

Other observations

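Of 16 antioxidant genes, none rose and 1 fell at 24 h in C13, none rose and 3 fell in Mt62, and none rose and 2 fell in WT, against 3 higher and 4 lower in C13, 3 and 5 in Mt62, and 2 and 4 in WT at 2 h. The all-gene shares are those given for the 0 h control above. The glutathione synthetase GSH2 rose at 2 h, by 1.08 in C13, 0.96 in Mt62 and 1.20 in WT. The catalase CAT2, which removes hydrogen peroxide, stood at -1.63 in C13, -2.01 in Mt62 and -1.98 in WT at 2 h, and at 24 h only Mt62 listed it, at -1.44. The glutathione reductase GR1 stood at -0.69 in C13, -0.66 in Mt62 and -0.56 in WT at 24 h, against -1.27, -1.61 and -1.62 at 2 h, with called differences of 0.95 in Mt62 and 1.23 in WT. Against the 24 h control GR1 was higher in every line, by 0.89 in C13, 0.59 in Mt62 and 0.97 in WT. NDA1, a mitochondrial NADH dehydrogenase under light and clock control, stood at -2.40 in C13, -2.31 in Mt62 and -2.12 in WT at 2 h, and was higher than the control of the same time at both times, by 1.80 in C13, 0.82 in Mt62 and 1.60 in WT at 24 h and by 0.98, 1.38 and 1.32 at 2 h.

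At 24 h, 11 genes had opposite signs in 2 lines against the 0 h control. They included ARR15, a cytokinin response regulator, at 0.72 in C13 and -0.82 in Mt62, and CRF5, a cytokinin response factor, at 0.49 in C13 and -0.55 in Mt62. These genes were chosen after their values were seen.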
